A study of Mus musculus with 32 samples.

Results

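The 7 genes described here are known as glucocorticoid-responsive regulators and were measured in the liver of aged male mice: Nr3c1, Fkbp5, Zbtb16, Tsc22d3, Sgk1, Errfi1 and Lpin1. The members were all probe sets whose only platform gene symbol was one of these names, which gave 9 probe sets of 12422 that were not controls, or 7 genes of 8251 with a symbol of their own. The genes were chosen from measured values of these arrays, namely the differences of Fkbp5, Zbtb16 and Lpin1 between long-term calorie restriction and the control diet, and those of Fkbp5, Lpin1 and Errfi1 between long-term and 8-week restriction. Both of those comparisons are therefore given for the members as values with standard errors and no test. The study measured liver RNA on Affymetrix arrays, 1 per mouse, to set candidate calorie restriction mimetics beside calorie restriction itself.

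All mice were males of the B6C3F1 hybrid strain, housed singly from 5 months of age and killed at 22 months after a fast of 48 h, and each of the 8 groups held 4 mice. Control mice (CON) were given 93 kcal weekly as a defined control food. Long-term restricted mice (LTCR) were given 52.2 kcal weekly of an enriched restriction diet, starting at 5 months. Mice of the short restriction (CR8) left the control diet at 20 months for 77 kcal per week of the restriction diet during 2 weeks, and then received 52.2 kcal per week. From 20 months on, 5 further groups ate the control diet for 8 weeks with metformin (MET), a biguanide that lowers hepatic glucose output, with glipizide (GLIP), a sulfonylurea that releases insulin, with both drugs (GM), with rosiglitazone (ROS), an agonist of the nuclear receptor PPAR gamma, or with soy isoflavone extract (SOY). Doses are not given in the sources used here. LTCR and CR8 differed in duration, age at onset and the intermediate ration together, and these cannot be told apart.

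Glucocorticoids are adrenal steroids that rise during fasting and stress and drive the liver to make glucose from amino acids. They bind the glucocorticoid receptor, encoded by Nr3c1, which waits in the cytosol in a complex with heat shock proteins, moves to the nucleus once it has bound the hormone, and activates genes from palindromic glucocorticoid response elements. Fkbp5 encodes FKBP51, a co-chaperone that is induced by the receptor and lowers its affinity for hormone, and so forms a short negative feedback. Zbtb16 (PLZF) is a zinc finger transcription factor, Tsc22d3 (GILZ) a leucine zipper protein that restrains inflammatory signalling, and Sgk1 a kinase activated downstream of insulin signalling. Errfi1 (MIG6) is a feedback inhibitor of the epidermal growth factor receptor, and Lpin1 (lipin 1) is a phosphatidate phosphatase that also acts with nuclear receptors on genes of fatty acid oxidation.

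To show what the starts of these genes hold, the 250 bases before each RefSeq gene start were searched on both strands in build GRCm38.p6. Start windows were at hand for 5 of the 7 members. These were 13 windows: 6 of Sgk1, 3 of Tsc22d3, 2 of Errfi1 and 1 each of Fkbp5 and Lpin1. The motifs were a full glucocorticoid response element, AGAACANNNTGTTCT, its looser core, GNACANNNTGTNC, its half-site, AGAACA, and the cAMP response element bound by CREB, TGACGTCA. A full element contains a core and 2 half-sites. The windows below are shown because they cover the member with the full element, the member with the cAMP element, and the 2 members with windows at hand whose log2 differences of LTCR from CON were largest, Lpin1 and Fkbp5. Capitals mark the motifs.
Sgk1, chr10:21993640-21993889, plus strand: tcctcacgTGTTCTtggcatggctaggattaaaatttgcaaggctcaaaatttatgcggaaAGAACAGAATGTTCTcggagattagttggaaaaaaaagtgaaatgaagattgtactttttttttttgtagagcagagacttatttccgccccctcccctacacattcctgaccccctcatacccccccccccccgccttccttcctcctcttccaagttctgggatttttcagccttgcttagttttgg
Errfi1, chr4:150854820-150855069, plus strand: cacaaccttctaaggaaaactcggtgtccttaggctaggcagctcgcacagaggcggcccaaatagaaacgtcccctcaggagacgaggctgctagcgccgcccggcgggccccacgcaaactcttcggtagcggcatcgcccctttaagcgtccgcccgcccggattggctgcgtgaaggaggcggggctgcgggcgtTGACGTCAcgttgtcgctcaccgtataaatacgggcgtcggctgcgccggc
Lpin1, chr12:16610967-16611216, minus strand: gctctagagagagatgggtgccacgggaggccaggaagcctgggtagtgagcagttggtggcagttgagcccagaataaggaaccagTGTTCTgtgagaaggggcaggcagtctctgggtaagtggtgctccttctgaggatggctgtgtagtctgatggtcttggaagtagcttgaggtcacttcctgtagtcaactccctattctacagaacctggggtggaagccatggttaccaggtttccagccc
Fkbp5, chr17:28486150-28486399, minus strand: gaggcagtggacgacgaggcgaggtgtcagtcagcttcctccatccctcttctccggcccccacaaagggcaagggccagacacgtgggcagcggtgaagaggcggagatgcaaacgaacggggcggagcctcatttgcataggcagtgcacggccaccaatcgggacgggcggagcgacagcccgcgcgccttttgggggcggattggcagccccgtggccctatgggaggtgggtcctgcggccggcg
The full element occurred in 1 of the 13 member windows, this Sgk1 start, where it begins 189 bases before the gene start, and in 3 of 32817 windows of all genes (0.00914%). The core occurred in 1 of the 13, the same place, and in 0.387% of all windows. The half-site occurred in 5 of the 13 and in 16.1% of all windows. Of these 5, Lpin1 and Tsc22d3 held 1 each and the rest were starts of Sgk1, so they are not 5 separate genes. Lpin1 carried it 163 bases before its start. The cAMP element stood 51 bases before the Errfi1 start, in 1 of the 13 windows and in 1.55% of all windows. The Fkbp5 window held none of these letters. These matches describe the printed windows only, and elements farther away were not searched.

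Deposited values were linear intensities already scaled by the authors, between 0.1 and 47323.7, and column medians ran from 144.8 to 170. Differences were taken on log2(intensity + 27), which understates changes of dim probe sets, and each is followed by its standard error from limma. Of the 9 member probe sets, 7 exceeded a mean of 94.2 over the 32 arrays and entered the fit, which covered 6 of the 7 genes. The probe sets below this filter were that of Tsc22d3 and the dimmer one of Zbtb16. Values in the text are intensity units unless they are called log2. The liver label was checked against hepatocyte markers: of 8 listed, 7 were on the array and none of them was at or below 27 on any array. Skeletal muscle markers averaged more than 1 log2 unit above the median array on 5 arrays, CON 3, CR8 1, CR8 2, ROS 4 and SOY 3, which stood 1.36 to 2.65 above it while the highest other array stood at 0.47, so calls that ended when these arrays were left out are given with their values without them.

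**Figure D1:**
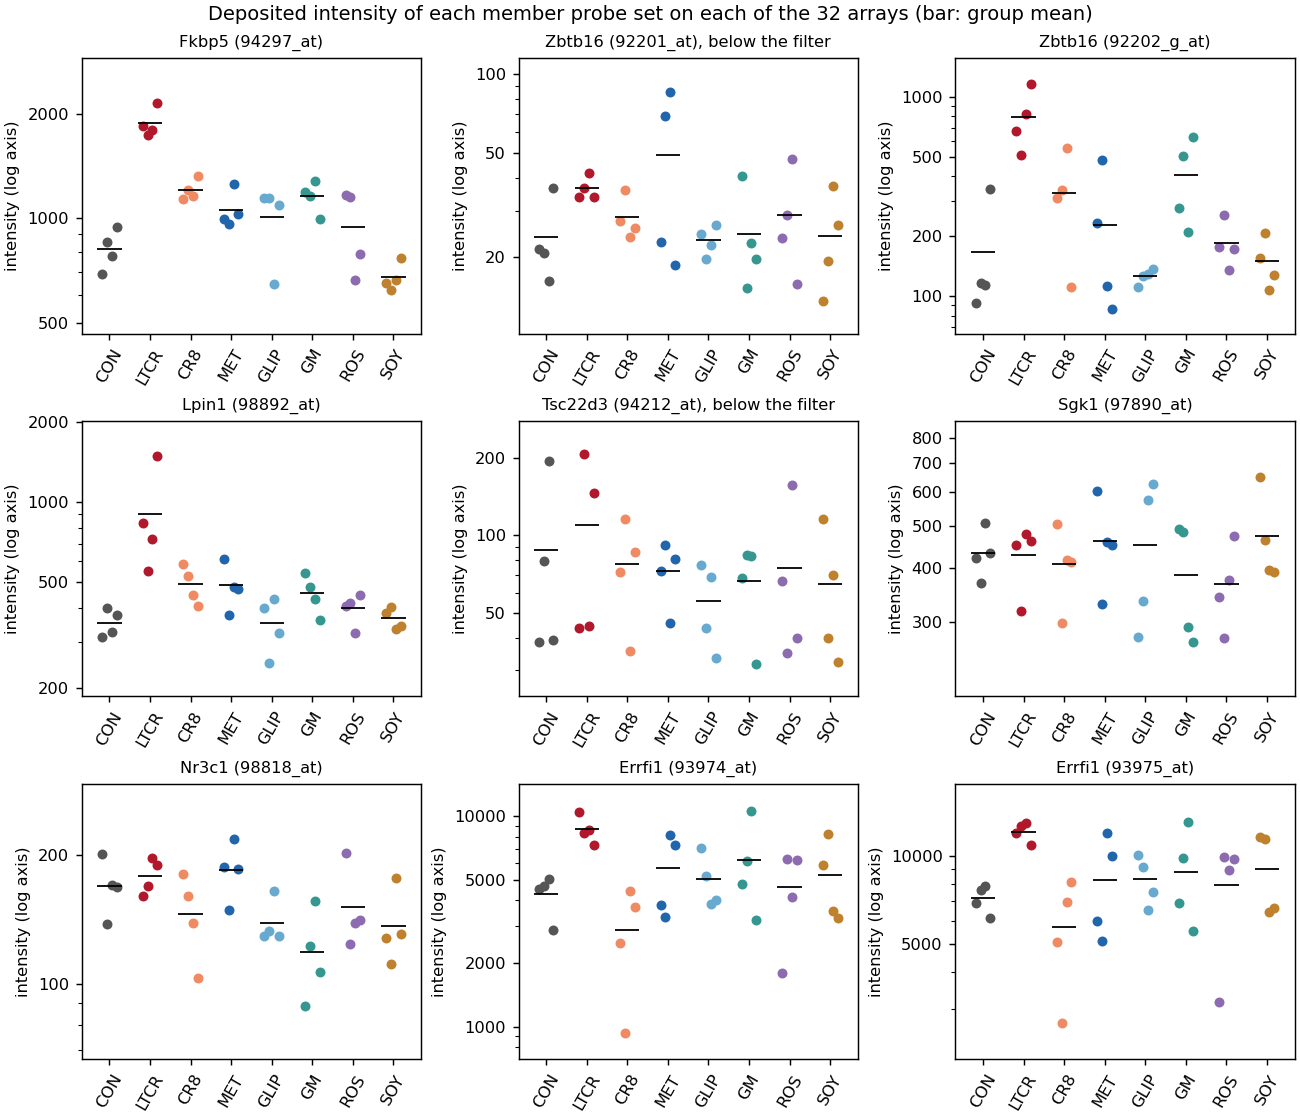
Intensity (log axis) of each of the 9 member probe sets on all 32 arrays, grouped by diet or drug; points are arrays and bars are means of 4. All 4 LTCR arrays of Fkbp5 lay between 1737.5 and 2145.2, above the highest of the other 28 arrays at 1321.2, while Sgk1 and Nr3c1 overlapped between LTCR and CON. How many of all probe sets set LTCR apart in this way was not counted.

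Values of the receptor gene overlapped between LTCR and CON. Nr3c1 measured 200.9, 138.2, 170.3 and 168.5 in CON and 160.5, 169.4, 196.3 and 189.6 in LTCR. The 2 groups covered much the same range, and the log2 difference was 0.07 ± 0.17, which turned to -0.0066 without CON 2. In CR8 the receptor measured 180.5, 160.5, 139 and 103.4, a spread wider than in LTCR. Nr3c1 was highest on average in MET, with 187.3, 148.8, 217.5 and 185.4, and lowest in GM, with 88.9, 122.7, 155.9 and 106.7. Only the highest GM array exceeded the lowest MET array. The log2 difference of GM from MET was -0.55 ± 0.17 (limma adjusted p = 0.0709), and that of GM from CON was -0.44 ± 0.17 (limma adjusted p = 0.154), so neither passed the threshold of 0.05. Over the ordered group means, MET, LTCR, CON, ROS, CR8, GLIP, SOY and GM, no neighbouring pair differed by more than its pooled SD.

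Fkbp5, the co-chaperone that damps the receptor, was chosen by its differences of LTCR from CON and from CR8. It measured 690.5, 856.3, 778 and 942.6 in CON and 1846.3, 1737.5, 1791.2 and 2145.2 in LTCR. All 28 arrays outside LTCR lay below the lowest LTCR array. How many of all probe sets keep groups apart without overlap was not counted, here or for the other members. In LTCR against CON, 7.41% of all tested probe sets were called higher and 11.5% lower. The log2 difference of Fkbp5 in LTCR from CON was 1.18 ± 0.16, a fold of 2.27. The 8-week restricted mice measured 1136.3, 1203.6, 1158.2 and 1321.2, so all 4 lay above the highest CON array and below the lowest LTCR array. LTCR differed from CR8 by 0.63 ± 0.16 on the log2 scale.

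CR8 itself stood 0.55 ± 0.16 log2 units above CON, a fold of 1.47, which did not pass the threshold across all probe sets (limma adjusted p = 0.101). GM, the combination of metformin and glipizide, gave nearly the same: 1192.5, 1158.7, 1278 and 996.6, all above the highest CON array. Its log2 difference was 0.49 ± 0.16 (limma adjusted p = 0.0980), and with arrays scaled to equal medians it was 0.63 and passed (limma adjusted p = 0.0237). That scaling moved the median of all tested probe sets by 0.14 in GM against CON, and the number called higher went from 64 to 412. MET measured 992.9, 960, 1252.7 and 1028.8, again all above CON, with 0.36 ± 0.16 (limma adjusted p = 0.211).

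The other drug groups were split or low for Fkbp5. In GLIP 3 arrays lay between 1089.1 and 1145.9 and 1 at 644.1, and the log2 difference from CON was 0.26 ± 0.16, or 0.46 without that array (limma adjusted p = 0.663 and 0.241). That array, GLIP 3, also had the highest summed intensity of 12 Kupffer cell and macrophage markers, 18200 against 4795 to 7391 in the other GLIP arrays, and the part of this in the low value was not tested. ROS measured 1167.8, 1150, 661.3 and 787, with 0.17 ± 0.16 (limma adjusted p = 0.864). SOY had the lowest values, 649, 619, 665.1 and 769.8, of which 3 lay below every CON array. Its log2 difference was -0.26 ± 0.16 (limma adjusted p = 0.706). These comparisons use the same CON arrays as the contrast by which Fkbp5 was chosen.

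A test over the 6 groups CR8, MET, GLIP, GM, ROS and SOY left out CON and LTCR but kept the CR8 arrays, which were 1 side of a comparison by which Fkbp5, Lpin1 and Errfi1 were chosen. Fkbp5 differed among them (F = 6.82, limma adjusted p = 0.0119) and was the only 1 of 6 member genes to pass, where 8.81% of all tested probe sets did. Mean intensity ran from 1205 ± 82.5 in CR8 and 1156 ± 118 in GM down to 676 ± 65.6 in SOY (SD, n = 4). The call ended without the 5 arrays that carried muscle transcripts (F = 4.38, limma adjusted p = 0.0943), 4 of which belong to these groups, and it held with each single array of the 6 groups left out. With the 5 drug groups alone, which hold no array of either choosing comparison although the spread was estimated over all 8 groups, Fkbp5 had F = 6.54 (limma adjusted p = 0.0294) and was again the only 1 of 6 member genes to pass, where 5.66% of all tested probe sets did. That call ended without SOY 1, SOY 2 or SOY 3 (limma adjusted p = 0.0668, 0.0745 and 0.0596) and without the muscle-carrying arrays (F = 4.54, limma adjusted p = 0.108). Over the 6 groups, Zbtb16 had F = 3.21 (limma adjusted p = 0.115) and passed narrowly without CR8 4 (limma adjusted p = 0.04998), and the other 4 genes had adjusted p between 0.22 and 0.728 in limma. In the order of group means, LTCR, CR8, GM, MET, GLIP, ROS, CON and SOY, neighbours differed by more than their pooled SD at 2 steps, from LTCR to CR8 and from CON to SOY.

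Among the transcription regulators, Zbtb16 had the widest range of all members. Its brighter probe set measured 92.2, 117.2, 114.4 and 343.3 in CON and 671.7, 507.9, 816.1 and 1157.4 in LTCR. No LTCR array overlapped CON, although 1 control mouse, CON 4, stood well above the other 3. The log2 difference was 2.17 ± 0.41, a fold of 4.51, and 2.54 without CON 4. CR8 measured 310.2, 341.7, 551.6 and 110.9, so 3 mice lay near or above the highest control and 1 lay among the low controls. LTCR differed from CR8 by 1.31 ± 0.41 on the log2 scale, and by 0.91 without CR8 4. Of the 28 arrays outside LTCR, 2 reached the lowest LTCR value, with 627.9 in GM 4 the highest of them.

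Zbtb16 was uneven from mouse to mouse in several groups. In GM it measured 276.6, 505, 210.5 and 627.9, and in GLIP 111.9, 127.1, 130 and 136.7, so every GM array lay above every GLIP array. The log2 difference was 1.38 ± 0.41, which did not pass the threshold across all probe sets (limma adjusted p = 0.416; unadjusted p = 0.00244). Against CON, GM differed by 1.20 ± 0.41 (limma adjusted p = 0.124), and against MET by 0.89 ± 0.41 (limma adjusted p = 0.254). MET measured 231.9, 484, 112.9 and 86.6, a span of 5.59-fold within 1 group. CR8 differed from CON by 0.87 ± 0.41 (limma adjusted p = 0.421). ROS and SOY had means of 186 ± 51.0 and 150 ± 43.5 (SD, n = 4), inside the range of the control arrays.

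The dimmer Zbtb16 probe set was at or below 27 on 19 of 32 arrays and was not tested. Its LTCR values were 33.8, 36.7, 41.7 and 33.9, and its highest values, 69.1 and 84.9, came from MET 2 and MET 3. The 2 probe sets had r = 0.216 over the 32 arrays, so the dim one did not repeat the order of the bright one. Tsc22d3, the anti-inflammatory leucine zipper protein, was below the filter too, with a mean of 76.2. It measured 38.6, 79.8, 193.8 and 39.5 in CON and 43.7, 205.6, 44.6 and 145.6 in LTCR. In both groups the highest array exceeded the lowest by more than 4-fold, and the groups overlapped over most of their range. Group means of Tsc22d3 went from 55.7 in GLIP to 110 in LTCR, and no neighbours in that order differed beyond their pooled SD.

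The signalling members behaved differently from each other. Sgk1, which carries the full response element shown above in 1 of its 6 start windows, measured 423, 370.7, 508.2 and 433 in CON and 452.5, 319.2, 480.8 and 462.5 in LTCR. The groups overlapped almost wholly and the log2 difference was -0.02 ± 0.23, with a sign that turned under other scalings. Group means lay between 368 in ROS and 476 in SOY, a range of 1.27-fold, and no neighbouring groups differed beyond their pooled SD. The widest spread was in GLIP, with 277.1, 335.2, 573.8 and 626.

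Errfi1, the inhibitor of epidermal growth factor signalling, was measured by 2 bright probe sets that followed each other closely (r = 0.958 over the 32 arrays and 0.952 within groups). The brighter of them measured 6921.5, 7643.3, 7912.8 and 6153.9 in CON and 11967, 12640, 12974 and 10955 in LTCR. No array of the groups overlapped, and the log2 difference was 0.76 ± 0.34. The dimmer one gave 1.04 ± 0.42, with CON between 2887.6 and 5008 and LTCR between 7305.3 and 10506. Of the 28 arrays outside LTCR, 4 reached the lowest LTCR value in either probe set, and the highest of them, 13127 in GM 3 for the brighter one, exceeded every LTCR array. LTCR was the most even group for the brighter probe set, with 1.18-fold between its lowest and highest array, while CR8 and ROS spanned 3.04-fold and 3.13-fold.

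CR8 had the lowest mean of Errfi1, opposite to LTCR in position. It measured 5062.3, 2685.7, 6937.3 and 8174.3 in the brighter probe set and 2505.3, 935, 4424.7 and 3703.4 in the dimmer one. LTCR stood above CR8 by 1.20 ± 0.34 and 1.78 ± 0.42 log2 units in the brighter and the dimmer one. The 2 lowest CR8 arrays, CR8 1 and CR8 2, were those with muscle transcripts, and without the 5 muscle-carrying arrays the differences were 0.68 and 1.08. CR8 against CON gave -0.43 ± 0.34 and -0.74 ± 0.42 (limma adjusted p = 0.693 and 0.541), and 0.13 and 0.041 without those arrays. The part of muscle RNA in the low CR8 values was not tested.

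Lpin1, the phosphatidate phosphatase, measured 311.1, 400.3, 325.5 and 375.7 in CON and 834.6, 551.5, 727.5 and 1498.1 in LTCR. No LTCR array overlapped CON, and 1 LTCR mouse stood far above the other 3. The log2 difference was 1.20 ± 0.20, a fold of 2.30, and 0.93 without LTCR 4. CR8 measured 587.4, 529.3, 447.3 and 407.4, every array above the highest control, and 1 of them above the lowest LTCR array. Its log2 difference from CON was 0.45 ± 0.20 (limma adjusted p = 0.381), and LTCR stood 0.76 ± 0.20 above CR8, or 0.49 without LTCR 4. MET measured 614.6, 378.6, 481.6 and 474.1, a difference of 0.42 ± 0.20 from CON (limma adjusted p = 0.261). GLIP, with 399.7, 248.7, 433.1 and 323.9, had the lowest array of all, and SOY spread least, between 333.6 and 403.2. In the order LTCR, CR8, MET, GM, ROS, SOY, CON and GLIP, only the step from LTCR to CR8 exceeded the pooled SD of its groups.

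**Figure D2:**
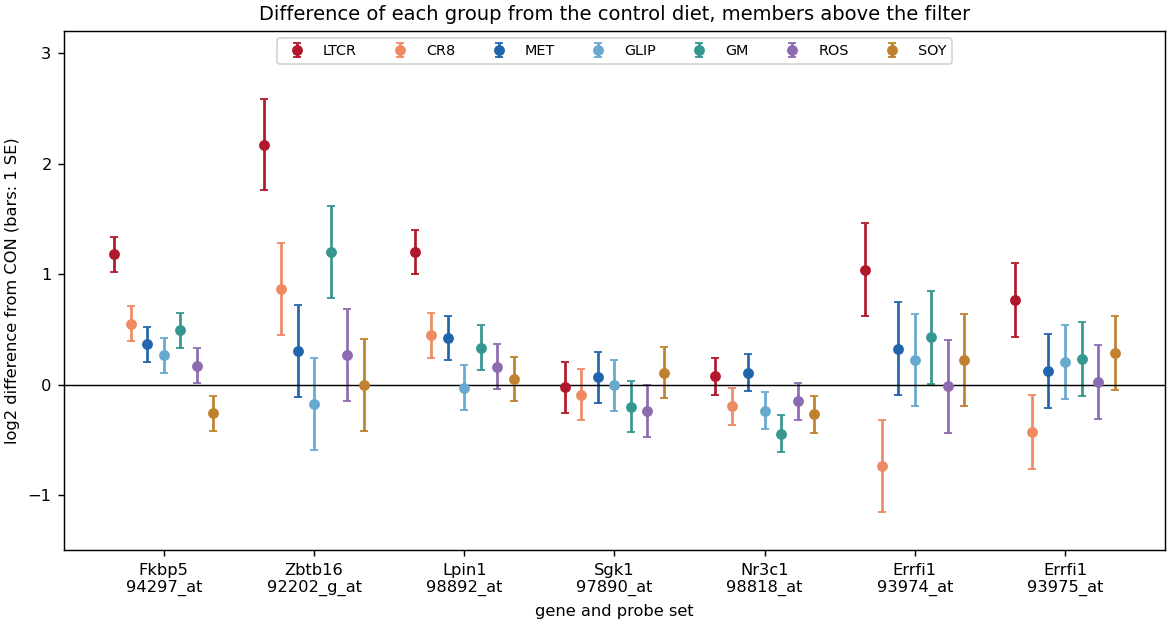
Log2 difference of each of the 7 treated groups from CON for the 7 member probe sets above the filter; bars are 1 standard error from limma. The LTCR points of Fkbp5 (1.18), Zbtb16 (2.17) and Lpin1 (1.20) stand above those of all other groups, those of Sgk1 (-0.02) and Nr3c1 (0.07) lie near 0, and Errfi1 is lowest in CR8.

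Counted over the 6 member genes that could be tested, none passed the limma threshold in the 8 comparisons other than those that chose them. Of these, 6 share the CON arrays by which Fkbp5, Zbtb16 and Lpin1 were chosen, and CR8 against CON also uses the CR8 arrays that chose Fkbp5, Lpin1 and Errfi1, so the counts and medians against CON are descriptions. Against CON, the members had 3 unadjusted p-values under 0.05 in CR8, where 11.5% of all tested probe sets had one and 0.173% were called higher after adjustment and 0.36% lower (13 and 27, or 18 and 18 with equal medians). They had 2 in MET, where 17.9% of all probe sets had one and 1.8% were called higher and 2.3% lower (135 and 173, or 192 and 67 with equal medians). They had 3 in GM, where 17.6% had one and 0.853% were called higher and 0.693% lower (64 and 52, or 412 and 18 with equal medians). In GLIP they had 0, where 9.28% of all probe sets had one and 0.12% were called higher and 0.0133% lower. In ROS they had 0, where 8.47% had one and 0.0266% were called higher and 0.107% lower. In SOY they had 0, where 8.14% had one (611 of all probe sets) and 0% were called in either direction. Against MET, the members had 2 in GM, where 17.7% of all probe sets had one and 1.28% were called higher and 1.29% lower (96 and 97, or 182 and 60 with equal medians). Against GLIP, they had 1 in GM, where 0% were called in either direction and 681 of all probe sets had an unadjusted p under 0.05. Median log2 differences over the 6 genes were 0.18 in CR8, 0.22 in MET and 0.28 in GM, beside medians over all tested probe sets of -0.02, -0.03 and -0.05, while those in GLIP, ROS and SOY were -0.02, 0.09 and 0.02.

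Pairs of members were then compared within groups, where no shift between diets enters. After removal of group means, the 21 pairs of members had Pearson r between -0.363 and 0.399, 9 of them positive, and 0 pairs passed a within-group permutation test after Benjamini-Hochberg adjustment over the 21. The strongest was Lpin1 with Sgk1, with r = 0.399 (permutation p = 0.0427, adjusted p = 0.896) and rho = 0.396 (permutation p = 0.0596, adjusted p = 0.916) over 32 arrays, and r was 0.405 without the 2 farthest arrays. Fkbp5 with Zbtb16 had r = -0.0217 and Fkbp5 with Lpin1 had r = 0.113 (permutation p = 0.883 and 0.578), although all 3 genes were highest in LTCR.

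**Figure D3:**
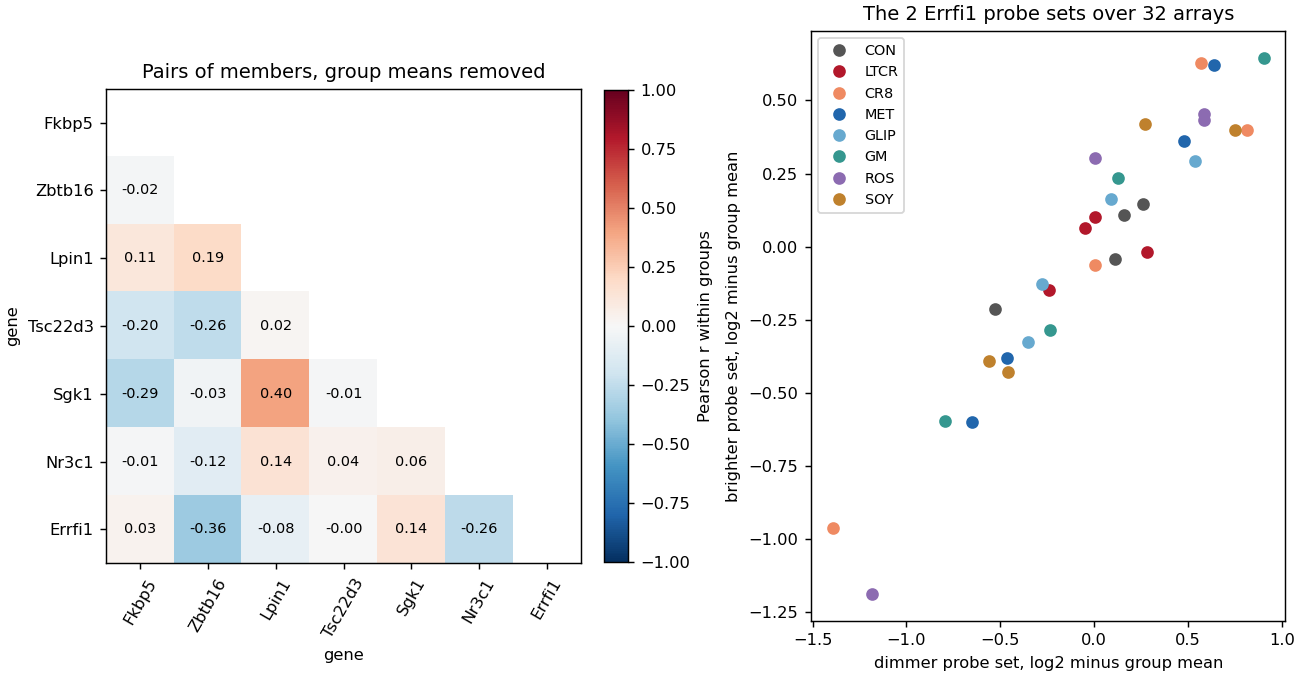
Left, Pearson r between members over 32 arrays after removal of each group's mean (21 pairs, colour scale from -1 to 1). Right, deviations from the group mean of the 2 Errfi1 probe sets in log2 units, coloured by group; they lie along 1 line (r = 0.952), whereas the highest r between different members is 0.40.

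The genes whose log2 values were most like each member over the 32 arrays differed from member to member. For Fkbp5 they were Aup1 (r = 0.821), Lcat, which esterifies plasma cholesterol (0.808), and Ip6k1, an inositol hexakisphosphate kinase (0.805), with r of 0.948, 0.899 and 0.971 over the 8 group means and 0.383, 0.604 and 0.200 within groups. For Lpin1 the first was Tat, tyrosine aminotransferase and a classical glucocorticoid-induced liver enzyme (r = 0.756, and 0.445 within groups), followed by Glrx and St3gal5 (0.717 each). For Zbtb16 they were Csrp2 (0.713), St3gal5 (0.666) and Glrx (0.648), so Glrx and St3gal5 were on both lists. Within groups their r was 0.116 and -0.09 with Zbtb16 and 0.190 and 0.054 with Lpin1, beside 0.828 and 0.958, and 0.881 and 0.955, over the 8 group means, which hold the differences by which both members were chosen. For Errfi1 they were H6pd, which supplies NADPH to the enzyme that regenerates active glucocorticoid (0.663), Cebpd (0.650) and Hspb8 (0.647). For Nr3c1 they were Snx13 (0.705), Sdha (0.699) and Lypla1 (0.675), and for Sgk1 Apbb1ip (0.648), Vasp (0.646) and Bgn (0.636). The Sgk1 likenesses with Apbb1ip and Vasp were larger within groups (0.719 and 0.688) than over group means (0.326 and 0.288). These are descriptions over shared arrays, with the first 3 taken from all tested genes.

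The rest of the pathway was described with 4 gene lists: the receptor complex and hormone handling, receptor coregulators, other glucocorticoid-induced liver genes and signalling partners of the members. LTCR was compared with CON, where 7.41% of all tested probe sets were called higher and 11.5% lower. Of 10 tested genes of the receptor complex and hormone handling, 3 rose and 1 fell. The risers were the heat shock proteins Hspa8, from 4303 ± 644 to 7269 ± 886 (SD, n = 4; log2 0.76 ± 0.14, limma adjusted p = 0.000316), Dnajb1 (0.75 ± 0.17, limma adjusted p = 0.00173) and Hsp90aa1, the inducible HSP90 that holds the receptor in its hormone-binding form (0.74 ± 0.22, limma adjusted p = 0.0183, and 0.0769 without LTCR 3 or 0.0593 without CON 2). Serpina6, corticosteroid-binding globulin, which carries the hormone in blood, fell from 12960 ± 859 to 8801 ± 1802 (log2 -0.58 ± 0.17, limma adjusted p = 0.0131, and 0.082 without LTCR 4), and its second probe set fell too. Fkbp4, the co-chaperone that competes with FKBP51, had 0.05 ± 0.14 (limma adjusted p = 0.867), and Hsd11b1, which regenerates active glucocorticoid in liver, -0.01 ± 0.11 (limma adjusted p = 0.955). Of 11 coregulators, 0 rose and 2 fell, Crebbp, a histone acetyltransferase (-1.13 ± 0.30, limma adjusted p = 0.00826, and 0.0622 without LTCR 4), and Smarca4, a chromatin remodelling ATPase (-0.41 ± 0.11, limma adjusted p = 0.0106, and 0.0505 without LTCR 2).

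Of 31 other glucocorticoid-induced genes, 10 rose and 3 fell in LTCR, with a median log2 difference of 0.28 beside 0.00 over all tested probe sets. Enzymes of amino acid breakdown and glucose output were among the risers: Tat went from 8250 ± 820 to 17230 ± 3318 (SD, n = 4; log2 1.04 ± 0.15, limma adjusted p = 1.53e-05), G6pc, glucose-6-phosphatase, from 3078 ± 560 to 8234 ± 1508 (1.41 ± 0.26), and Pck1, phosphoenolpyruvate carboxykinase, from 4222 ± 472 to 6912 ± 760 (0.71 ± 0.14). Tdo2, tryptophan dioxygenase, rose by 0.55 ± 0.09 in its brighter probe set, while the other one had 0.0043 (limma adjusted p = 0.986). Dusp1, a phosphatase that switches off MAP kinases, rose by 0.84 ± 0.24, the lipase inhibitor Angptl4 by 0.95 ± 0.20, and Cry1, a repressor of the circadian clock, by 1.09 ± 0.26. Igfbp1, an insulin-like growth factor binding protein, rose by 1.14 ± 0.35 (limma adjusted p = 0.0205), a call that ended without CON 2 (0.118, with 0.76), LTCR 1 (0.0663) or LTCR 4 (0.0542). Of its other probe sets, Angptl4 had 1 that rose (0.66) and 1 that did not pass (0.50, limma adjusted p = 0.319). Smaller rises were those of Cps1 (0.33 ± 0.08, and 0.07 with quantile normalization, limma adjusted p = 0.496) and Gjb1 (0.26 ± 0.09, limma adjusted p = 0.0470, a call that held under 7 of 18 alternatives and ended without the muscle-carrying arrays, with 0.26 and 0.122). Per1, a clock gene with a known response element, had 0.89 ± 0.44 (limma adjusted p = 0.163).

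The 3 that fell were Mt2 and Mt1, zinc-binding metallothioneins, and Bcl6, a transcriptional repressor. Mt2 went from 4987 ± 1656 to 863.5 ± 314 (SD, n = 4; log2 -2.50 ± 0.50, limma adjusted p = 0.000622), Mt1 had -1.67 ± 0.47 (limma adjusted p = 0.0111), and Bcl6 went from 596 ± 427 to 92.5 ± 34.9 (-2.11 ± 0.56, limma adjusted p = 0.00718). Of 16 signalling partners, 2 rose and 2 fell. Lpin2, a second lipin, rose by 0.57 ± 0.16 (limma adjusted p = 0.0123; without the muscle-carrying arrays 0.52, limma adjusted p = 0.0585). Nedd4l, a ubiquitin ligase that Sgk1 phosphorylates, rose by 0.38 ± 0.13 (limma adjusted p = 0.0412, held under 10 of 18 alternatives). Without the muscle-carrying arrays Nedd4l had 0.33 (limma adjusted p = 0.143), and its second probe set had 0.26 (limma adjusted p = 0.376). Tsc22d1, a relative of Tsc22d3, fell from 538 ± 48.1 to 133 ± 23.0 (-1.82 ± 0.25, limma adjusted p = 7.04e-06), and Map2k1, a kinase below the growth factor receptors, fell by 0.60 ± 0.14. The summed intensity of the 7 hepatocyte markers was 123800 to 139000 in CON and 147600 to 178800 in LTCR, a list that includes Tat and Cps1. Of 14 symbols listed for Kupffer cells and macrophages, which include Adgre1 and Emr1, 2 names of 1 gene, 12 were on the array. Their sum was 4892 to 6214 in CON and 2860 to 4487 in LTCR, with at most 2 of them at or below 27 on an array. The sum of 19 skeletal muscle markers was 17700 to 38030 in CON and 6754 to 10140 in LTCR, with at most 6 of them at or below 27. The mean log2 of these markers overlapped, with 7.21, 7.27, 9.52 and 7.65 in CON and 7.72, 7.30, 7.18 and 7.20 in LTCR. A summed intensity is carried by its brightest markers and cannot alone be read as muscle content. CON 1 summed to 18240 at a mean log2 of 7.21, and LTCR 1 to 9091 at 7.72. The sum of the 7 measured stellate and endothelial markers was 3069 to 3248 in CON and 3352 to 3950 in LTCR, with at most 1 at or below 27. The CON and LTCR ranges of these 4 sums did not overlap, while those of adipocyte, red blood cell, lymphocyte, pancreas and cholangiocyte markers did. By mean log2, the hepatocyte markers (13.81 to 13.92 in CON, 13.96 to 14.11 in LTCR) still separated. So did the Kupffer cell and macrophage markers (8.23 to 8.64 in CON, 7.65 to 8.22 in LTCR). The muscle markers did not, nor did the stellate and endothelial markers (7.92 to 8.39 in CON, 8.01 to 8.25 in LTCR). The part of cell composition in these differences was not tested, and in whole liver fewer cells of a type and less RNA per cell cannot be told apart.

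**Figure D4:**
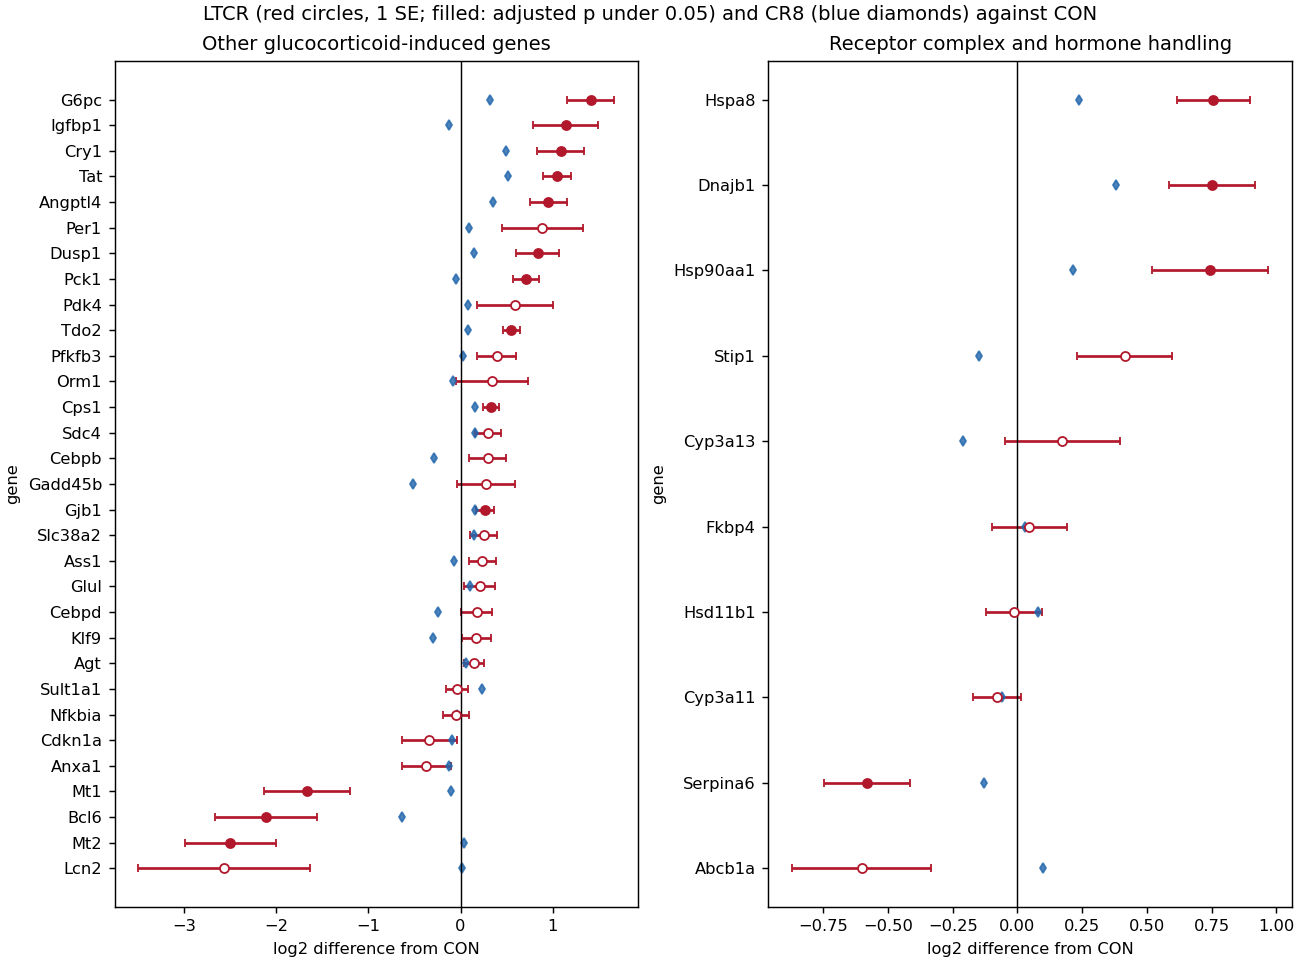
Log2 difference of LTCR from CON (red circles, bars 1 standard error, filled where the limma adjusted p is under 0.05) and of CR8 from CON (blue diamonds) for the 31 other glucocorticoid-induced genes and the 10 genes of the receptor complex and hormone handling. In LTCR 13 of the first and 4 of the second passed, where 7.41% of all tested probe sets were called higher and 11.5% lower. In CR8 none did, where 0.173% of all tested probe sets were called higher and 0.36% lower.

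LTCR was set against CR8 in the same lists, where 4.57% of all probe sets were called higher in LTCR and 7.11% lower. Among the 31 glucocorticoid-induced genes 7 were higher and 2 lower. G6pc differed by 1.09 ± 0.26, Pck1 by 0.76 ± 0.14, Igfbp1 by 1.26 ± 0.35, Tat by 0.53 ± 0.15 and Mt2 by -2.53 ± 0.50, and of these G6pc, Pck1 and Mt2 kept their calls under all 18 alternatives, while those of Tat and Igfbp1 ended without the muscle-carrying arrays, where the differences were 0.53 and 1.15 (limma adjusted p = 0.102 and 0.118). Tdo2 (0.47 ± 0.09; its other probe set had -0.09, limma adjusted p = 0.699), Angptl4 (held under 5 of 18 alternatives), Klf9 (9 of 18) and Mt1 (14 of 18) completed the 9. Without the muscle-carrying arrays Angptl4 had 0.60 and Mt1 -1.25 (limma adjusted p = 0.191 and 0.243). Of its other probe sets, Angptl4 had 1 that passed (0.53) and 1 at 0.041 (limma adjusted p = 0.954), and the second of Klf9 had 0.80 (limma adjusted p = 0.0737). In the receptor complex Hspa8 (0.52 ± 0.14) and Stip1, the adaptor between HSP70 and HSP90 (0.56 ± 0.18), were higher, and both calls ended without the muscle-carrying arrays, where the differences were 0.46 and 0.41 (limma adjusted p = 0.141 and 0.320). Crebbp and Smarca4 were lower (-1.11 and -0.37), and without the muscle-carrying arrays they had -1.17 and -0.40 (limma adjusted p = 0.0794 and 0.113). Of the signalling partners, Lpin2 (0.76 ± 0.16) and Nedd4l (0.68 ± 0.13) were higher, and Tsc22d1 (-1.63 ± 0.25) and the transcription factor Foxo3 (-0.37 ± 0.12, held under 6 of 18 alternatives) were lower. Without the muscle-carrying arrays Foxo3 had -0.28 (limma adjusted p = 0.319), and the second Nedd4l probe set had 0.28 (limma adjusted p = 0.356).

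In CR8, GM, ROS and SOY against CON, and in GM against GLIP, 0 genes of the 4 lists passed in limma, where unadjusted p-values under 0.05 were held by 861, 1318, 636, 611 and 681 of all 7507 tested probe sets. In the same order, 40, 116, 10, 0 and 0 of all tested probe sets passed. In MET against CON 1 list gene passed, where 1.8% of all tested probe sets were called higher and 2.3% lower. It was Tdo2, higher by 0.30 ± 0.09 (limma adjusted p = 0.0476), while its other probe set had -0.20. The call held under 6 of 18 alternatives and ended without the muscle-carrying arrays (0.31, limma adjusted p = 0.126). In GLIP against CON 1 list gene passed, where 0.12% of all tested probe sets were called higher and 0.0133% lower. Sdc4, a cell surface proteoglycan, went from 647 ± 71.9 to 1136 ± 158 (SD, n = 4, log2 0.78 ± 0.14, limma adjusted p = 0.0177). Its limma adjusted p was 0.0577 without GLIP 2, 0.06 without GLIP 1 and, with a difference of 0.81, 0.0908 without the muscle-carrying arrays. GM differed from MET in 3 list genes, all lower: Serpina6 (-0.66 ± 0.17, limma adjusted p = 0.0266), the drug efflux pump Abcb1a (-0.999 ± 0.27, limma adjusted p = 0.0404) and Dusp1 (-0.89 ± 0.24, limma adjusted p = 0.0391). Of all tested probe sets, 1.28% were called higher and 1.29% lower in GM than in MET. Serpina6 went from 17780 ± 998 in MET to 11440 ± 2539 in GM, beside 12960 ± 859 in CON, and its second probe set was lower too. None of these 3 calls held under every alternative: Serpina6 and Dusp1 kept theirs under 10 of 18 and Abcb1a under 5 of 17. Without the muscle-carrying arrays, none of which is in GM or MET, Abcb1a and Dusp1 kept their differences with limma adjusted p = 0.0518 and 0.0649. In the test over 6 groups, 6 list genes passed (limma adjusted p between 0.0212 and 0.0472). They were 3 of 10 in the receptor complex list (Hsp90aa1, Serpina6 and Abcb1a) and 3 of 31 other glucocorticoid-induced genes (Tdo2, Igfbp1 and Sdc4). Of 11 coregulators and 16 signalling partners, 0 passed. Of all tested probe sets, 8.81% passed, so over the 4 lists together the share was about the same. Without the muscle-carrying arrays, 0 of the list genes passed.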

How the data were processed

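The authors deposited 1 table of linear intensity values for 12488 probe sets on 32 arrays, scaled so that the mean of each column without its outer 2% lay between 499.2 and 499.9, as the deposited values themselves show. Software, detection calls, scan dates and RNA extraction order are not given in the sources used here, so depth and detection limits per probe set are unknown and the number of arrays limits the precision. Replicates were separate mice, per the labels. The 66 control probe sets were left out.

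Intensities were analysed as log2(intensity + 27), 27 being the 20th percentile of all intensities. Probe sets with a mean above the 40th percentile, 94.2, were tested (7507, for 5659 genes with 1 symbol). Differences came from limma 3.58.1 in R 4.3.3 (lmFit, eBayes with trend) in 1 fit over 8 groups with 24 residual degrees of freedom, with Benjamini-Hochberg adjustment at 0.05 within each of 10 comparisons and a moderated F test over 6 groups (over the 5 drug groups as an alternative added after seeing the data). Errors of differences are standard errors. Within-group correlations used 100000 permutations within groups. The script was tested on simulated data. Promoter windows came from RefSeq.

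Members, gene lists and comparisons were chosen with earlier results of these data known, so no list is independent support. Named genes were every member, every list gene past the threshold (at most 8 of a list, by smallest p, plus a fixed set of pathway genes), and the 3 genes most correlated with each member. Bcl6 and Gjb1 in LTCR against CON and Angptl4 in LTCR against CR8 fall outside this rule and were named after their values were seen. A gene was represented by its brightest probe set. Alternatives covered scaling (quantile normalization, equal medians), the value added before logs (1, or the 40th percentile), the filter (none, or the 60th percentile), fitting only the groups of a comparison, blocking on replicate number, no intensity trend, and omission of the muscle-carrying arrays or of single arrays. Replicate numbers left no trace of pairing in the deviations from group means. Same-numbered arrays of different groups had a median r of -0.01 over 112 pairs, and differently numbered ones -0.0014 over 336 pairs. A median over all tested probe sets cannot exclude that mice were handled in numbered sets.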

Additional observations from a re-analysis of the deposited data

Results flagged for a closer look

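Among 72 sets of 4 arrays (9 probe sets in 8 groups), 5 held 1 array set apart from the other 3 by more than Dixon's 95% limit, where chance gives about 1 in 20. Fkbp5 measured 644.1 in GLIP 3, against 1089.1 to 1145.9 in the other GLIP arrays. Nr3c1 measured 164.8 in the same array, against 129.2 to 133 in the others. GLIP 3 had the highest summed intensity of Kupffer cell and macrophage markers of the 32 arrays, 18200, and their part in these values was not tested. The brighter probe set of Zbtb16 measured 343.3 in CON 4, against 92.2 to 117.2. Sgk1 measured 319.2 in LTCR 2, against 452.5 to 480.8. That array had the lowest macrophage marker sum, 2860, and the part of these markers in the Sgk1 value was not tested. The brighter probe set of Errfi1 measured 3159.7 in ROS 1, against 8952.3 to 9896.8, and its other probe set was lowest in the same array, at 1807.2. The macrophage marker sum was 6004 in CON 4 and 5198 in ROS 1.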

How the results depend on the processing

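Differences of Fkbp5, Zbtb16, Lpin1 and Errfi1 between LTCR and CON, and between LTCR and CR8, kept their direction under all 18 alternatives. Signs turned for Sgk1 in LTCR against CON, from -0.02 to 0.022 with quantile normalization, 0.011 with equal medians and 0.051 without the muscle-carrying arrays, with a range of -0.092 to 0.10 with 1 array left out. They turned with 1 array left out for Nr3c1 in LTCR against CON (-0.0066 to 0.15) and for Sgk1 in LTCR against CR8 (-0.063 to 0.20). Errfi1 in CR8 against CON turned to 0.041 and 0.13 in its 2 probe sets without the muscle-carrying arrays, a fit with 2 CR8 arrays. Members past the threshold numbered 0 in GM against CON and 1 with equal medians. Over 6 groups they numbered 1, 0 without the muscle-carrying arrays, and 1 to 2 with 1 array left out, the second being Zbtb16 without CR8 4. In settings added after seeing the data, members past it numbered 1 over the 5 drug groups alone and 0 there without the muscle-carrying arrays. The cause of these changes was not tested.

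Equal medians moved the median of all probe sets by 0.14 in GM and 0.11 in SOY against CON and by 0.12 in GM against GLIP. Calls over all probe sets went from 1420 to 1106 without the muscle-carrying arrays in LTCR against CON, from 308 to 31 in MET, 116 to 4 in GM and 193 to 4 in GM against MET in fits to the 2 groups alone, and from 40 to 16 in CR8. In GM they rose to 430 with equal medians. In the test over 6 groups, 661 calls became 201 without the muscle-carrying arrays, 425 without CR8 among the groups and 167 with both changes. The numbers in the array titles left no trace of pairing in the deviations from group means. With the replicate number as a block the counts were 1372 in LTCR, 40 in CR8, 284 in MET, 4 in GLIP (10 without), 81 in GM and 497 over 6 groups. The block changed no member's call. Of 23 list genes past the threshold in LTCR against CON, 14 stayed past it under every alternative, as did 7 of 17 in LTCR against CR8 and 0 of the 5 in the drug comparisons. Dim probe sets limit what can be said of Tsc22d3, and 4 mice per group limit all differences.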
